A study of Mus musculus with 2 samples.

Results

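The miR-23, miR-27 and miR-24 miRNAs are made from a pair of related gene clusters, each of which carries 1 hairpin of every kind on 1 primary transcript. Their levels were compared between Müller glia (MG) with a conditional deletion of Dicer1 and wild-type MG. The members were taken by name, as the mouse probes mmu-miR-23a, mmu-miR-23b, mmu-miR-27a, mmu-miR-27b and mmu-miR-24 (older names without a star, which stand for the 3' arm of the hairpin). These are 5 of the 566 mouse miRNA probes on the panel. The panel held 0 probes for the other arm of these hairpins.

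MG, which span the retina and support its neurons, were sorted by FACS for tdTomato from adult mice and their miRNAs were counted without amplification by NanoString nCounter, which ligates a tag to each mature miRNA and counts barcoded probes. Dicer-CKO_MG mice (Rlbp1-CreER:tdTomato:Dicerf/f) carried floxed Dicer1, and their MG came from a pool of 26 retinas. Wild-type mice (Rlbp1-CreER:tdTomato) carried the same Cre and reporter without the floxed alleles, and their MG came from a pool of 40 retinas according to the sample's description, although another of its labels gives 26. Mice of both groups received tamoxifen (75 mg/kg, postnatal days 11 to 14), so that Cre driven by the Rlbp1 promoter was active in MG, and the study describes the deletion of Dicer1 as incomplete. Each group is 1 pooled library, so differences have no replicate check and carry no p-value. Dicer1 itself was not analysed here.

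Primary transcripts of miRNAs are cut to hairpins by Drosha in the nucleus, and Dicer then cuts off the loop of each hairpin to release the arms, of which 1 usually becomes the mature miRNA. Hairpins that sit on 1 transcript are made in equal numbers by transcription, while their mature miRNAs can still differ through processing and stability. miR-23 and miR-27 are best known from endothelial cells, where they promote the growth of vessels, in the mouse retina among other places. miR-23a and miR-23b repress glutaminase in human cancer cells, miR-27 represses the formation of fat cells, and miR-24 keeps cells of the developing retina from apoptosis in Xenopus.

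The mature sequences show what the probes had to tell apart. They are given 5' to 3' from RefSeq (GRCm38.p6) with the seed, bases 2 to 8, in capitals, because the seed decides which mRNAs a miRNA can pair with.
miR-23a-3p: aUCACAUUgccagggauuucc
miR-27a-3p: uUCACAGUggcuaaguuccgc
miR-27b-3p: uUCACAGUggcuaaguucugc
miR-24-3p: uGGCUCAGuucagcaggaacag
miR-27a-3p and miR-27b-3p share their seed and are identical at 20 of 21 bases, with the substitution C19U counted from the 5' end of miR-27a-3p. The seeds of miR-23a-3p and miR-27a-3p differ by 1 base, at U7G counted from the 5' end of miR-23a-3p. The seed of miR-24-3p is unrelated to these. miR-23b-3p was the other member, and its mature sequence was not available here.

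In GRCm38.p6 the first cluster lies on the plus strand of chromosome 8, with Mir23a at 84208518 to 84208592, Mir27a at 84208672 to 84208758 and Mir24-2 at 84208815 to 84208921. It spans 404 bp, overlaps no protein-coding gene of the annotation, and its nearest such gene is Zswim4, 2021 bp from Mir24-2. The second cluster lies on the plus strand of chromosome 13, with Mir23b at 63300484 to 63300557, Mir27b at 63300712 to 63300784 and Mir24-1 at 63301208 to 63301275. It spans 792 bp and lies inside Aopep, a gene for an aminopeptidase (62964893 to 63326096). The exon and intron structure of Aopep was not used here. Each Mir24 hairpin overlaps another annotated miRNA gene, Mir3074-2 on chromosome 8 and Mir3074-1 on chromosome 13.

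**Figure D1:**
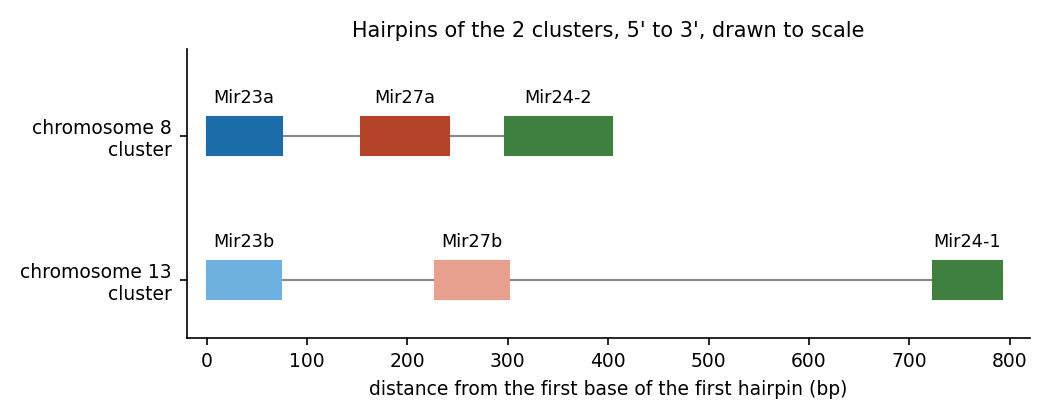
Hairpins of both clusters drawn to scale from RefSeq, with the distance from the first base of the first hairpin (bp) on the x axis and colours for each miRNA. The order miR-23, miR-27, miR-24 is the same in both, over 404 bp on chromosome 8 and 792 bp on chromosome 13.

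The hairpins that Dicer would cut are shown for the whole chromosome 8 cluster and for Mir24-1, with the mature 3' arm in capitals. They show that the same miR-24 comes from different hairpins, so that its probe reads the sum of both clusters.
Mir23a: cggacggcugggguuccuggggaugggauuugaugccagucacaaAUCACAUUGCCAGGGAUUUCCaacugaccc
Mir27a: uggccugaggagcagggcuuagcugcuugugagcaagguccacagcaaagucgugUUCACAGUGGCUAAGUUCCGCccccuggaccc
Mir24-2: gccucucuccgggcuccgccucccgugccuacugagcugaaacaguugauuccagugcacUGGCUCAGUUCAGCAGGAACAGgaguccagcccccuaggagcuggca
Mir24-1: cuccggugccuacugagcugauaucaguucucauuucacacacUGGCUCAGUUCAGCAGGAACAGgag
Between the annotated arms there are 14 bases in Mir23a and Mir24-2, 15 in Mir24-1 and 20 in Mir27a and Mir27b, so the loops of the Mir27 hairpins were the longest of these 5. For the miR-24 seed, 4 other mouse miRNAs of the 1679 in the sequence table carry the same 7 letters (miR-5124b, miR-6369, miR-6410 and miR-6413), and none of them is on the panel.

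The Dicer-CKO_MG library held 139812 barcodes over all probes and the wild-type library 769736. The 8 negative controls of each library set its detection limit, their mean plus 2 SD, which came to 53.2 raw counts in Dicer-CKO_MG and 71.7 in wild-type. By this rule 77 mouse miRNAs were detected in Dicer-CKO_MG, 171 in wild-type and 74 in both. Raw counts of the 4 housekeeping mRNAs were also lower in Dicer-CKO_MG (1939 against 7024 for Actb in wild-type). The paper states about the same mass of total RNA as input for each sample, and the reason for the lower counts was not tested. For normalized counts the mean negative control was taken off, and the rest was multiplied by factors from the positive controls and the housekeeping genes, 2.74 in all in Dicer-CKO_MG and 0.716 in wild-type. On that scale the detection limits were 90.0 in Dicer-CKO_MG and 23.6 in wild-type. Each interval below is an exact 95% binomial one, made from a miRNA's 2 raw counts and multiplied by the ratio of scale and background terms. They cover counting error only, not errors of the scale or of the background, and are too narrow for counts near background.

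Both members measured from the chromosome 8 cluster, and miR-23b of the chromosome 13 cluster, stood at 40.4 to 49.0% of wild-type in Dicer-CKO_MG. miR-24 was seen only in wild-type and miR-27b in neither library. Of the 4 members detected in either library, 3 were called lower, that is at least 2-fold lower with an interval below equality, and 0 higher. Over all 174 mouse miRNAs detected in either library, 29.9% were called lower and 12.1% higher. The group is too small for its share to be set apart from that background.

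**Figure D2:**
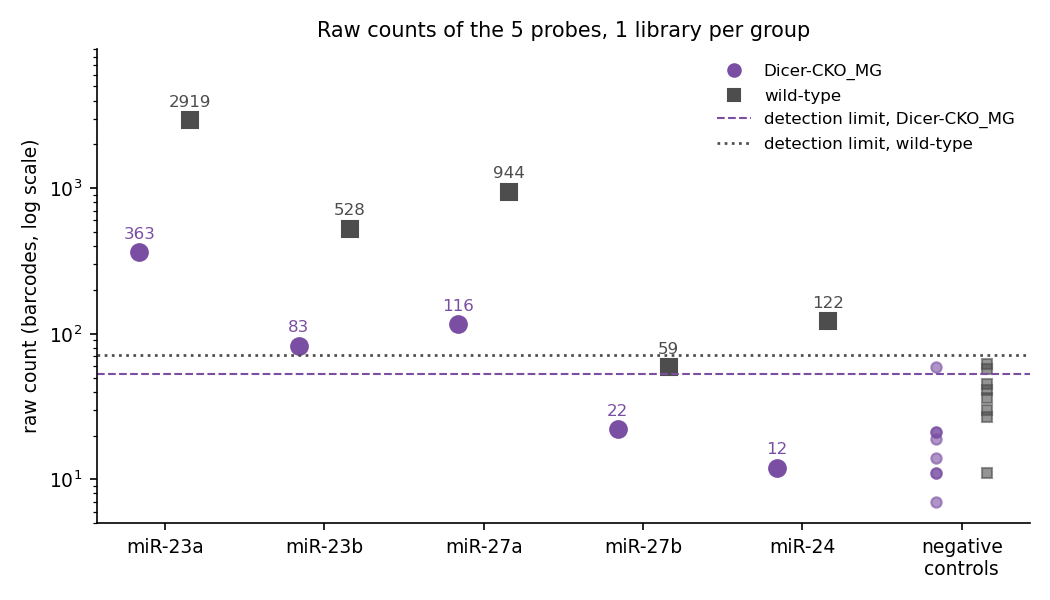
Raw counts (barcodes, log scale) of the 5 probes in the Dicer-CKO_MG library (circles) and the wild-type library (squares), beside the 8 negative controls of each library. Lines mark the detection limits of 53.2 in Dicer-CKO_MG, against 71.7 in wild-type, and miR-27b lies below its limit in both libraries.

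miR-23a was the most abundant member. The Dicer-CKO_MG library had 363 raw counts of it and the wild-type library 2919, rank 23 of the 566 mouse probes in each library. These counts lay 20.9 SD above the mean of the negative controls in Dicer-CKO_MG and 174 SD above it in wild-type. The normalized count was 939 in Dicer-CKO_MG, against 2062 in wild-type, which left 45.5% (95% counting interval 40.7 to 50.8%), a log2 ratio of -1.14. With the highest negative control subtracted in place of the mean, 50.9% remained and the 2-fold call of miR-23a was lost.

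miR-27a lies 79 bp downstream of miR-23a on the same transcript. It was counted 116 times in Dicer-CKO_MG and 944 times in wild-type, and after normalization 262 times in Dicer-CKO_MG against 648 times in wild-type. It was left at 40.4% (33.0 to 49.1%), a log2 ratio of -1.31. In Dicer-CKO_MG its count lay 5.82 SD above the mean of the negative controls, against 54.8 SD in wild-type.

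miR-23b, the paralog of miR-23a on chromosome 13, was counted 83 times in Dicer-CKO_MG against 528 times in wild-type. After normalization these were 172 in Dicer-CKO_MG against 350.3 in wild-type, which left 49.0% (38.4 to 61.8%), a log2 ratio of -1.03. Its Dicer-CKO_MG count was only 3.81 SD above the mean of the negative controls, and the highest negative control of that library had a raw count of 59. The call of miR-23b is near the 2-fold line and was lost without B2m among the housekeeping genes (53.4% remaining), without background subtraction (57.2%) and with detection set above 100 raw counts (a bound of at most 62.3%). With the mean plus 2 SD or the highest of the negative controls subtracted, 29.3% or 24.6% of it remained.

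miR-24 was counted 12 times in Dicer-CKO_MG, below the mean of the negative controls (20.4), against 122 times in wild-type, where it was detected at rank 109. Its normalized count in wild-type was 59.7, which is below the Dicer-CKO_MG detection limit of 90.0. The bound is therefore at most 151% of wild-type, and its direction cannot be given on the housekeeping scale. On the scale of the positive controls alone the bound was at most 27.8% of wild-type.

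miR-27b was counted 22 times in Dicer-CKO_MG against 59 times in wild-type, below the detection limit in both, so no fold is given. In wild-type its count above background was 2.25% of that of miR-27a, and even a count at the detection limit would have been 3.65%. miR-27b differs from miR-27a by the 1 base shown above, so this also limits the share of miR-27a that its probe could have read in that library. In Dicer-CKO_MG the same limit is 34.4%, because miR-27a itself was low.

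Levels of different miRNAs depend on how well each probe ligates and binds, so the order of the members is approximate. In both libraries the raw counts of the members detected there ran in the order miR-23a, miR-27a and miR-23b, with miR-24 after them in wild-type. The closest neighbours were miR-27a and miR-23b in Dicer-CKO_MG, with 116 and 83 raw counts. The probe for miR-24, which both transcripts encode, had 2.89% of the count above background of the miR-23a probe in wild-type. In Dicer-CKO_MG a miR-24 count at the detection limit would have been 9.59% of that of miR-23a, so a ratio as in wild-type would not have been seen there.

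The comparison of members within a library does not depend on the scale, because every factor cancels. It was made for 2 pairs, miR-27a and miR-23a of 1 transcript and the paralogs miR-23b and miR-23a. The other pair measured in both libraries, miR-27a and miR-23b, comes from different transcripts and was not compared, and each remaining pair had a member below the detection limit. For the pair made from 1 transcript, the count of miR-27a above background was 27.9% of that of miR-23a in Dicer-CKO_MG and 31.4% in wild-type. The log2 ratio of miR-27a was 0.17 below that of miR-23a (difference -0.17, interval -0.50 to 0.15), which is within counting error and leaves room for miR-27a to be 0.705 to 1.11 times as well kept as miR-23a. For the paralogs, miR-23b had 18.3% of the count of miR-23a in Dicer-CKO_MG and 17.0% in wild-type, a difference of 0.11 on the log2 scale (-0.28 to 0.48), also within counting error. A difference between these paralogs was thus not detectable at this depth, and the interval allows 0.822 to 1.40 times. The sequence of miR-23b-3p was not available to compare, and whether its probe also reads miR-23a was not tested. Both differences rest on the subtracted background. With the highest negative control subtracted in its place, miR-27a was 0.72 and miR-23b 1.05 below miR-23a on the log2 scale.

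Against the other miRNAs of the same cells, the members stood in the middle when the mean negative control was subtracted. Among the 74 mouse miRNAs detected in both libraries, ordered from the least remaining, miR-27a was at rank 34, miR-23a at rank 36 and miR-23b at rank 41. The median log2 ratio of the 3 members was -1.14, and that of all 74 was -1.12, or 46.1% remaining. With miR-24 at its bound the median over 4 members was -1.08. The group has no test of its own, and 41 of the 74 were called lower and 18 higher.

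**Figure D3:**
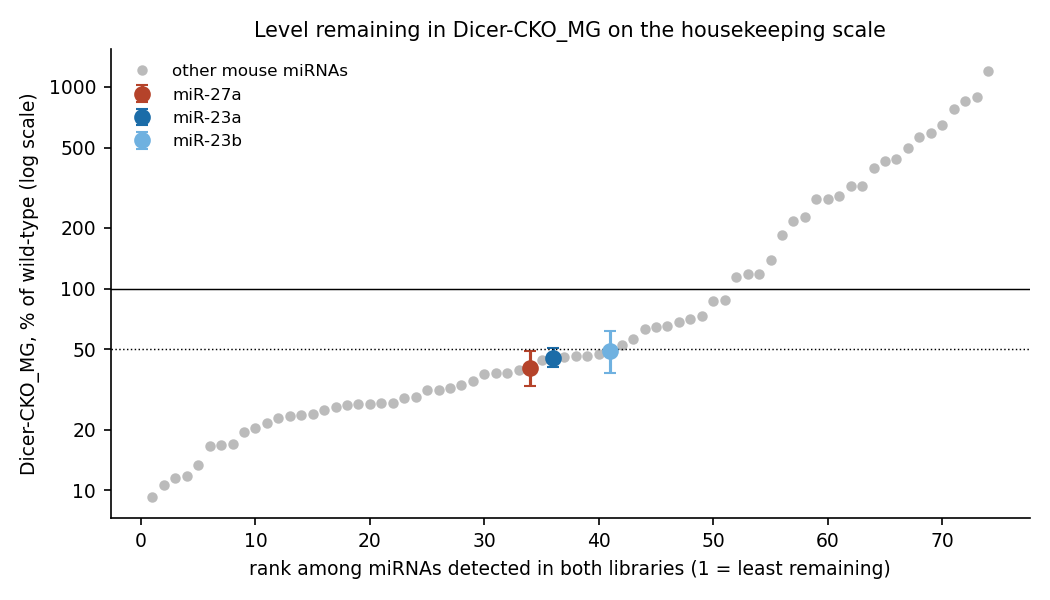
Level remaining in Dicer-CKO_MG as a percent of wild-type (log scale, housekeeping scale) for the 74 mouse miRNAs detected in both libraries, ordered by rank. Bars are 95% counting intervals of miR-27a, miR-23a and miR-23b, which stand at 40.4, 45.5 and 49.0% and just below the dotted line of a 2-fold difference.

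As shares of all detected mouse miRNA counts of a library, which need no control probes, the 3 members took a larger part in Dicer-CKO_MG. Together they made up 1.19% of the counts above background in Dicer-CKO_MG (interval 1.09 to 1.29%) and 0.633% in wild-type (0.614 to 0.652%). For miR-23a alone the share was 0.811% in Dicer-CKO_MG, against 0.426% in wild-type, and for miR-27a it was 0.226% in Dicer-CKO_MG, against 0.134% in wild-type. miR-23b made up 0.148% in Dicer-CKO_MG, against 0.0724% in wild-type, so each share was larger in Dicer-CKO_MG beyond counting error. miR-204, the most abundant miRNA of wild-type MG, was left at 10.7%, so much of the total that these shares are taken of was itself lower in Dicer-CKO_MG.

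How much of these miRNAs remained depends on the scale. Their place among the others does not depend on the scale, but it does depend on the background subtracted. Scaled to the positive controls only, miR-23a was left at 8.39%, miR-27a at 7.45% and miR-23b at 9.03%, since the housekeeping genes shift every log2 ratio by 2.44. Scaled to the sum of detected mouse miRNAs, all 3 were above wild-type, with miR-23a at 190%, miR-27a at 169% and miR-23b at 205%. This is the comparison of shares above in another form, not a separate result. Under every scale tried, 35 of the 74 miRNAs had less remaining than miR-23a, because a scale moves all of them alike. This number was 37 without background subtraction, 42 with the mean plus 2 SD and 45 with the highest negative control subtracted. In the last case miR-23b was left at 24.6% and miR-27a at 30.9%, against 50.9% for miR-23a, so the order of the members changed. The median log2 ratio of all 74 was then -1.40. Over all mouse miRNAs, 137 were called lower and 2 higher with positive controls only, and 5 lower and 37 higher with the sum.

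**Figure D4:**
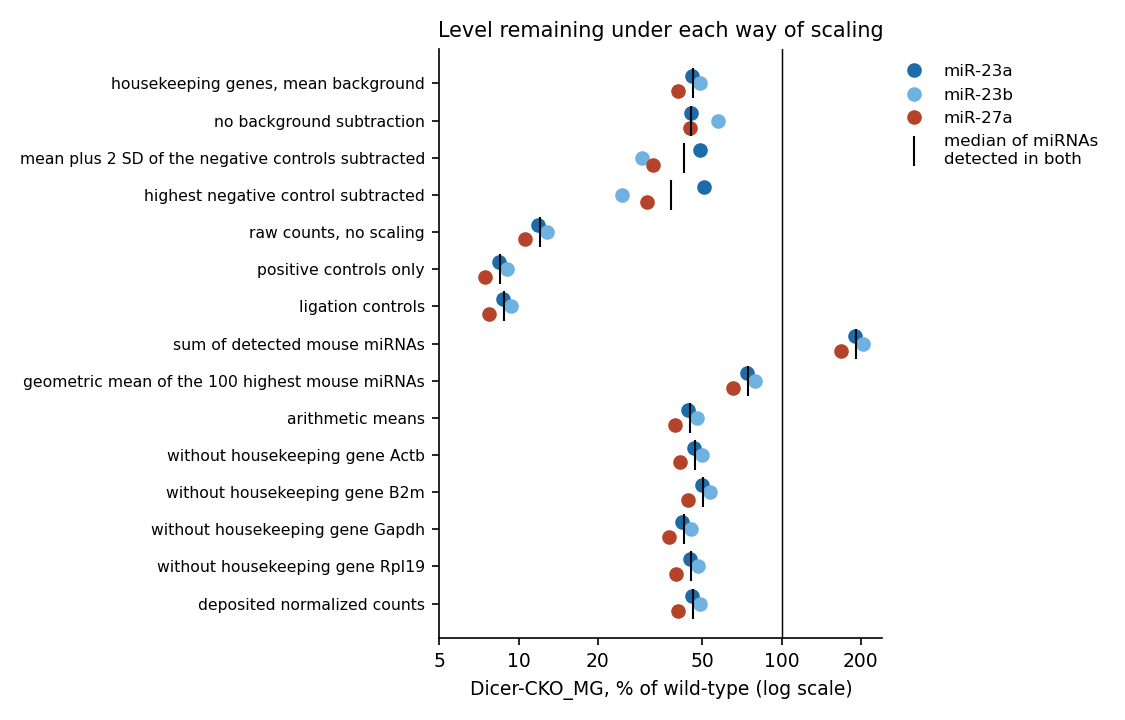
Level of miR-23a, miR-23b and miR-27a remaining in Dicer-CKO_MG as a percent of wild-type (log scale) under each way of scaling and of background subtraction. Short bars are the median of the 74 miRNAs detected in both libraries, and the 3 members stand at 7.45 to 9.03% with positive controls only and at 169 to 205% with the sum of detected miRNAs.

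miRNAs from 1 transcript were compared in other clusters in the same way, from a list of 24 made with earlier results of these data known. In 10 of them at least 2 members with a probe of their own were detected in both libraries. The log2 ratios of such members lay 0.04 to 1.73 apart, with a median of 1.23, against 0.17 for miR-23a and miR-27a. Only 1 of the 10 had a smaller spread, that of miR-29b and miR-29c with 115 and 118% of wild-type. The widest was that of miR-99a (11.5%) and let-7c (38.1%), where the intervals of 10.6 to 12.6% and 36.5 to 39.8% do not overlap. In some of these clusters a member is also made from another locus (let-7c, miR-16, miR-29b and miR-30c), and the part of this in the spread was not tested. The pair of miR-142-3p and miR-142-5p, 0.97 apart, are both arms of 1 hairpin and not separate hairpins. With the mean plus 2 SD or the highest negative control subtracted, the difference of miR-27a from miR-23a was -0.60 or -0.72. The spread of the other clusters was not computed with these subtractions, and the rank of this pair among them is given for the mean background only. Without background subtraction the difference of miR-27a from miR-23a was -0.017, and the median spread of the other 10 clusters was 1.25. This is a description of 1 pair of libraries, and the clusters share members.

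**Figure D5:**
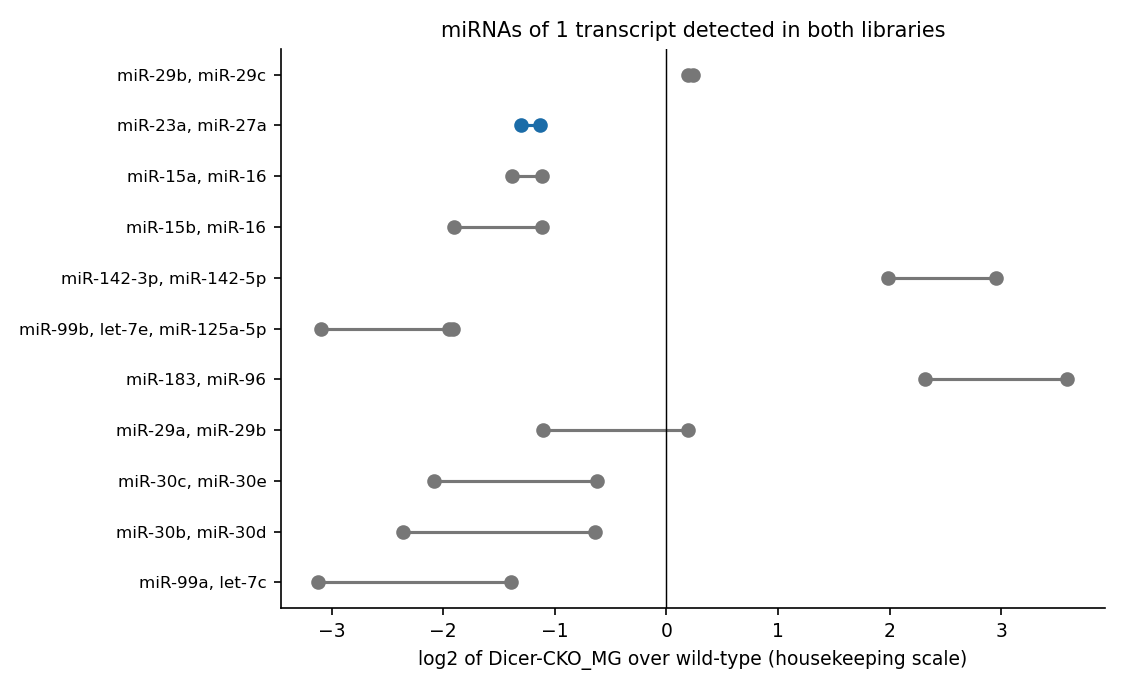
Log2 ratio of Dicer-CKO_MG over wild-type on the housekeeping scale for miRNAs of 1 transcript that were detected in both libraries, with 1 row per cluster ordered by spread. With the mean negative control subtracted, the pair of miR-23a and miR-27a lies 0.17 apart and the others 0.04 to 1.73.

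The miRNAs whose levels were most like those of a member were found by the distance between their log2 normalized counts in the 2 libraries, among those detected in both. Nearest to miR-23a was miR-335-5p, with normalized counts of 813 in Dicer-CKO_MG against 2063 in wild-type, and 39.4% remaining (distance 0.21). Nearest to miR-23b was miR-181c, with 155 in Dicer-CKO_MG against 327.4 in wild-type, and 47.4% remaining (0.18). The next were let-7f (68.5% remaining) and miR-22 (25.1%) for miR-23a, and miR-338-3p (52.8%) and miR-350 (32.4%) for miR-23b. For miR-27a the nearest was miR-151-5p, with 213 in Dicer-CKO_MG against 782 in wild-type, and 27.2% remaining (0.40), and next came miR-210, a miRNA induced by hypoxia, with 56.3% remaining, and miR-1937c with 63.4%. Over these 9 miRNAs of like level, 25.1 to 68.5% remained. Because they were chosen by their levels in both libraries, the choice itself limits this range.

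Because miR-23 and miR-27 are also miRNAs of vessels, markers of other cell types were read beside them. Of 4 vascular miRNAs, miR-126-3p, the miRNA of endothelial cells, was higher in Dicer-CKO_MG, with a raw count of 307 against 208 in wild-type and a normalized count of 785 in Dicer-CKO_MG against 121 in wild-type. miR-126-5p, miR-143 and miR-145 were at background in both libraries, the last 2 being miRNAs of smooth muscle. The summed normalized count of the vascular list was 845 in Dicer-CKO_MG, against 121 in wild-type. Of 6 immune cell miRNAs 4 were called higher and 2, miR-155 and miR-223, were at background in both libraries, with a sum of 1293 in Dicer-CKO_MG, against 260.0 in wild-type. Of 4 neuronal miRNAs 3 were called higher, with a sum of 8306 in Dicer-CKO_MG, against 1137 in wild-type. Most of both sums came from miR-124, with 7503 in Dicer-CKO_MG, against 839 in wild-type. The remaining neuronal one, miR-137, passed the detection limit only in wild-type (78 raw counts, against 21 in Dicer-CKO_MG), so its direction is open. Of 3 photoreceptor miRNAs 2 were called higher, with a sum of 3315 in Dicer-CKO_MG, against 402 in wild-type, while miR-182 stayed at background in both. The erythroid miR-144 and miR-451 were at background in both. In contrast miR-204, miR-125b-5p and miR-9, typical of MG, were all lower, with a sum of 41366 in Dicer-CKO_MG, against 291755 in wild-type. On the housekeeping scale miR-23a, miR-27a and miR-23b were also below wild-type, and they kept a larger part than miR-204 (10.7%), miR-125b-5p (16.6%) and miR-9. Their direction does not set them apart, because 51 of the 74 miRNAs detected in both libraries were below wild-type on that scale. These directions also depend on the scale. With positive controls only, 5 of the 10 measured markers of other cells stood below wild-type (miR-142-5p, miR-146a, miR-129-3p, miR-132 and miR-183), while with the sum of detected miRNAs all 10 stood above it and miR-9 stood at 100.2% of wild-type. The part of other cells in the counts of the members was not tested.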

How the data were processed

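miRNAs of FACS-sorted MG were measured by NanoString nCounter in 1 pooled library of Dicer-CKO_MG and 1 of wild-type mice, and groups were taken from the genotype labels. Unscaled barcode counts, as deposited, were used. The authors' processed values, a score made in nSolver 2.6 from 4 housekeeping genes, 8 negative and 6 positive controls and rounded to whole numbers, served as an alternative. The 626 probes were matched by accession. Each library's mean negative control was taken off every count, and factors were made from geometric means of positive controls and then of housekeeping genes. These values were 1.14 times the deposited ones in both libraries. No test was run, since a group is a single library. A miRNA was called at a 2-fold difference with a counting interval that excluded equality, and one detected in 1 library is a bound against the detection limit of the other. Differences between members have exact conditional intervals of the odds ratio of raw counts, carried by a constant.

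Named miRNAs are the 5 members, the 3 nearest to each measured member by levels, clusters with the widest and narrowest spread, and marker lists. Members and lists were chosen with earlier results of these data known. Sequences and coordinates are from RefSeq (GRCm38.p6), which paired 4 of the 5 mature names. The steps were tested on simulated data, scored only for miRNAs with high wild-type counts. Counts as low as those of miR-24 and miR-27b were not covered, and miR-23b (489 wild-type counts above background) lay near the lower limit of scoring. Control and housekeeping counts were simulated without noise, so errors of the scale and of the background were not tested. Python 3.11.15 and scipy 1.17.1 were used. Alternatives were other background subtractions, scales, means, detection limits and fold sizes, each housekeeping gene left out, and the deposited values.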

Additional observations from a re-analysis of the deposited data

How the results depend on the processing

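With 1 library per group, the scale sets the size of every difference. The median log2 ratio of the measured members, -1.14, was -3.07 with raw counts, -3.58 with positive controls only, -3.52 with ligation controls, -0.44 with the geometric mean of the 100 highest miRNAs and 0.93 with the sum of detected mouse miRNAs. With that sum the direction reversed for miR-23a (0.93), miR-23b (1.03) and miR-27a (0.76). 0 members were called lower with the sum, with the 100 highest miRNAs or at 4-fold. With raw counts, positive controls only and ligation controls, miR-24 was called lower, at bounds of at most 39.4, 27.8 and 28.8% of wild-type. With the mean plus 2 SD or the highest negative control subtracted, the median was -1.63 and -1.69, the difference of miR-27a from miR-23a was -0.60 and -0.72, and that of miR-23b from miR-23a was -0.74 and -1.05, since counts of miR-23b and miR-27a in Dicer-CKO_MG were near the amount subtracted. With these subtractions a bound has almost no height and miR-24 was called lower, while the call of miR-23a was lost with the highest negative control (-0.98). Mouse miRNAs called lower numbered 124 and 142 with them, 121 with raw counts, 137 with positive controls, 136 with ligation controls, 5 with the sum, 33 with the 100 highest and 19 at 4-fold, against 52. Those called higher numbered 5 with raw counts, 2 with positive controls and with ligation controls, 37 with the sum, 12 with detection above 100 counts and 13 at 4-fold, against 21. Leaving out 1 housekeeping gene gave 41.9 to 49.6% remaining for miR-23a, 45.1 to 53.4% for miR-23b and 37.2 to 44.0% for miR-27a. Arithmetic means and the deposited values kept all 3 below wild-type and called. Depth limits miR-24 and miR-27b, which were at background in Dicer-CKO_MG. No paired analysis was possible because each group has 1 library.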
